A study of Rattus norvegicus with 6 samples.

Results

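G protein-coupled receptors and their accessory proteins were compared in liver endothelial cell preparations of Wistar rats, 3 from control and 3 from cirrhotic animals, with 1 array each. The probe sets were chosen by gene symbol, with earlier results of these data known: the adenosine, adrenergic, angiotensin, vasopressin, bradykinin, calcitonin, muscarinic, cannabinoid, dopamine, endothelin, protease-activated, serotonin, lysophosphatidic acid, purine nucleotide, prostaglandin E, sphingosine 1-phosphate and somatostatin receptor families, the receptor activity-modifying proteins (Ramp) and the numbered Gpr genes except Gpr182. This gave 99 genes with 131 probe sets, of 10411 genes with a probe set of their own and 15866 probe sets on the Affymetrix rat 230A array. Each array gave 1 linear signal per probe set. Per the labels, the cirrhotic rats were adult males that had gone through a protocol to induce cirrhosis, which the labels do not describe, and the controls were Wistar rats of unstated sex and age. In both groups the cells were freed with collagenase, centrifuged and caught on magnetic beads carrying an antibody whose target is not named. The number of rats behind each array is not stated, so the p-values rest only on the spread among the 6 arrays, which may be technical.

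G protein-coupled receptors sit in the cell membrane, bind a ligand outside the cell and activate G proteins inside it, which act on cyclic AMP and calcium. In the liver they set the tone of the sinusoids: angiotensin II, endothelin and sphingosine 1-phosphate act on contractile stellate cells, and sphingosine 1-phosphate acting on S1pr1 keeps endothelial junctions closed. Ramp1, Ramp2 and Ramp3 are not receptors themselves but single-pass proteins that pair with the calcitonin-like receptor Calcrl. With Ramp1 it becomes the receptor of calcitonin gene-related peptide, and with Ramp2 or Ramp3 a receptor of adrenomedullin. Several genes with a Gpr number are also not classical surface receptors: Gpr89b encodes a Golgi ion channel, Gpr137b and Gpr155 encode lysosomal membrane proteins, Gpr107 and Gpr108 encode proteins of the Golgi and endosomes, and Gpr15lg encodes the secreted ligand of Gpr15.

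The 4 upstream regions printed here belong to a pair of sphingosine 1-phosphate receptors that moved in opposite directions and to Ramp1 and Ramp3, which were both higher in cirrhotic arrays, Ramp3 in a fit without a filter on dim probe sets only. RefSeq sequences of the GRCr8 assembly were matched by gene ID for 77 of the 99 genes. Ramp2, which was lower in cirrhotic arrays, had no match and could not be shown. Each run is the 250 bases before the annotated start of the gene, 5′ to 3′ on the gene's strand. Ramp1 lies at chr9:99212866-99213115 (plus strand), Ramp3 at chr14:85741064-85741313 (plus strand), S1pr1 at chr2:206314071-206314320 (minus strand) and S1pr3 at chr17:13946014-13946263 (minus strand). Capitals mark matches on either strand to CACCC, the core bound by Krüppel-like factors, to CCGGAAG, bound by ETS factors, or to TATAAA. These motifs share no bases with each other in the 4 regions.
Ramp1: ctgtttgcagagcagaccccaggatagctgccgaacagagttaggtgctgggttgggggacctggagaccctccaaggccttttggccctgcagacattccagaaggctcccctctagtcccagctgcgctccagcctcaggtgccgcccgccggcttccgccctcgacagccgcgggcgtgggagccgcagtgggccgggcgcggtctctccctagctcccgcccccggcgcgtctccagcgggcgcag
Ramp3: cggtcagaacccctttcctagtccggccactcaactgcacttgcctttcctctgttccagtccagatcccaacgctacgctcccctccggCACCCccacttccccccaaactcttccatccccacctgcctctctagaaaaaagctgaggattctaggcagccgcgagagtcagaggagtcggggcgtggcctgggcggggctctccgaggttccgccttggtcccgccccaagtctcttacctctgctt
S1pr1: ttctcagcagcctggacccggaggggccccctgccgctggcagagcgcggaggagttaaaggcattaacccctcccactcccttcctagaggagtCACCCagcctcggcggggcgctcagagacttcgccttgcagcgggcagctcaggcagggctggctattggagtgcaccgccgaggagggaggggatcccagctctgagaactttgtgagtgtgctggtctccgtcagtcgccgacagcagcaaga
S1pr3: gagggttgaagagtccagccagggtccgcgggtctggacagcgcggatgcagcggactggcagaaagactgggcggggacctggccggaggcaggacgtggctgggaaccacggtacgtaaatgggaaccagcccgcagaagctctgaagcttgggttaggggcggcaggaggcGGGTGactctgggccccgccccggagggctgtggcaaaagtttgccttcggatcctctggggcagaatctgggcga
CACCC occurred 1 time each in Ramp3, S1pr1 and S1pr3, beginning 160, 155 and 76 bases before the start, and its letters were not in the Ramp1 window. Of 33469 windows of this length in the table, 49.2% held CACCC, 7.27% CCGGAAG and 12.9% TATAAA. Neither of the last 2 motifs had its letters in any of the 4 windows. The G and C share of the sequence was 70.0% in Ramp1, 61.6% in Ramp3, 64.8% in S1pr1 and 66.0% in S1pr3.

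Most receptor probe sets were dim. The mean signal over the 6 arrays was under 100 for 83 of the 131 probe sets (63.4%), against 33.8% of the whole array. Between this level and the filter of the test lay 9 further probe sets, and 39 probe sets of 37 genes were tested. The filter removed the 40% of the array with the lowest mean log2 signal, which corresponds to a signal of about 127. Amine and acetylcholine receptors were dim in 33 of 40 probe sets, and the numbered Gpr genes in 14 of 28. The probe sets next to the level of 100 were those of Gpr137 (107) and Adora1 (103) above it and of Calcr (97.8) and Gpr83 (94.6) under it. A probe set's signal depends on its probes, so levels of different genes were not compared. No probe set with a single symbol matched the endothelin receptors, which were not analysed here.

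**Figure D1:**
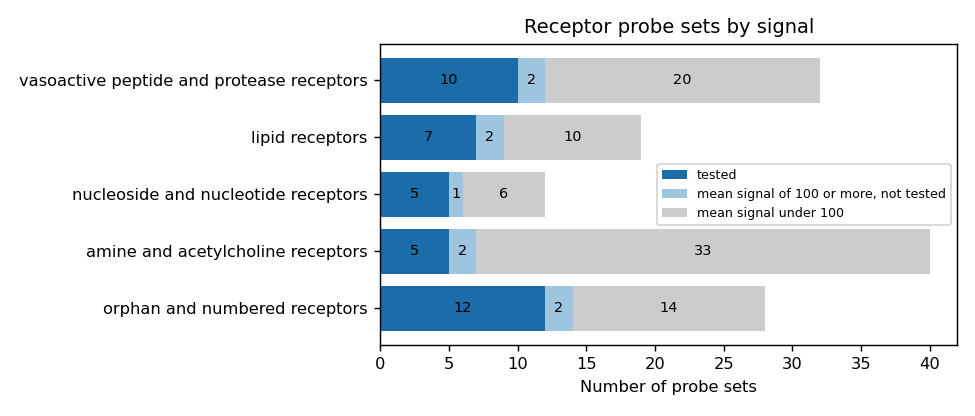
Number of receptor probe sets in each family group, split into those tested, those with a mean signal of 100 or more that the filter left out, and those with a mean signal under 100. The amine and acetylcholine receptors had 33 of 40 probe sets under 100, and the numbered Gpr genes had the most tested, 12 of 28.

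Of the receptor probe sets, 8 of 7 genes were higher and 9 of 9 genes were lower in cirrhotic arrays (n = 3 arrays per group). The test was limma's, with p-values adjusted by the Benjamini-Hochberg method over 9519 probe sets and a threshold of 0.05. These are 20.5% and 23.1% of the 39 tested, beside 12.3% higher and 13.2% lower among all tested probe sets. Probe sets that passed the filter through 1 bright group had to differ, so these shares do not describe the family as a whole. This applies to Ptger4, Gpr176 and Lpar1 (control means 104, 91.0 and 114) and to Gpr155 and Gpr15lg (cirrhotic means 91.4 and 104). Over all 131 receptor probe sets, in a fit without the filter, 11 were higher (8.40%) and 9 lower (6.87%), near the 8.06% and 7.42% of the whole array. The groups did not overlap in 19 of 39 receptor probe sets (48.7%), against 44.9% of all tested. The median log2 difference of the 39 was -0.07, against -0.02 over all tested. Ramp1, Agtr1a, S1pr3, S1pr2, Ptger4, Lpar1 and Gpr176 rose. Ramp2, S1pr1, Cnr2, Gpr4, Gpr146, Gpr137b, Gpr155, Gpr107 and Gpr15lg fell. With each array left out in turn, between 5 and 8 receptor probe sets were higher and between 6 and 8 lower, the count of 5 higher coming without cirrhotic array 1 and that of 6 lower without control array 2 or control array 3. Over all tested probe sets these fits had 6.25% to 13% higher and 7.36% to 12.9% lower. A fit with the array number as a block is given in the closing section, and ranges over alternatives leave it out.

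**Figure D2:**
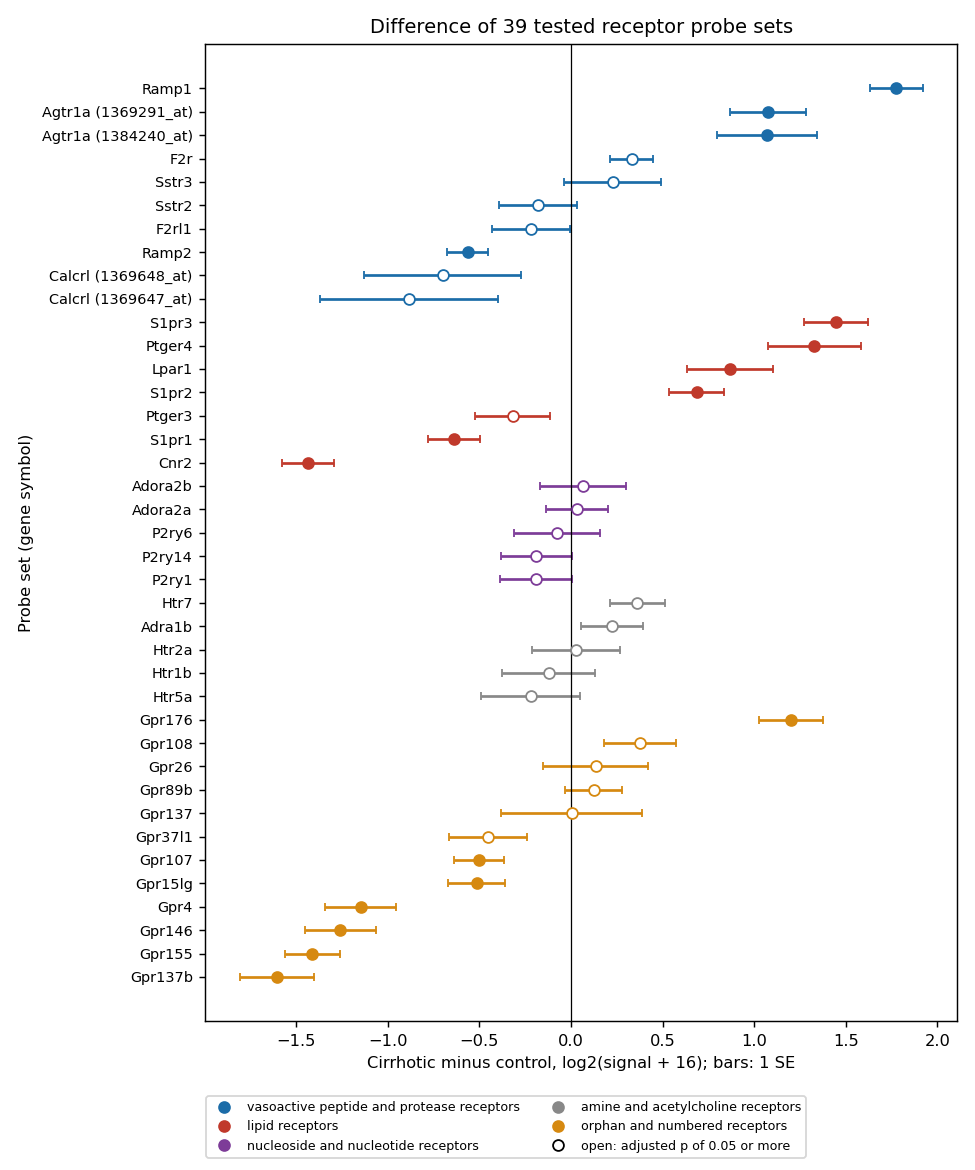
Cirrhotic minus control difference on the log2(signal + 16) scale for the 39 tested receptor probe sets, with 1 SE from the limma fit (n = 3 arrays per group), coloured by family group; filled points had an adjusted p under 0.05. Values run from -1.61 for Gpr137b to 1.78 for Ramp1, and all 10 points of nucleoside, nucleotide, amine and acetylcholine receptors are open.

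These arrays hold RNA of whole cell preparations, in which fewer cells of a type and less RNA per cell cannot be told apart. Endothelial identity was present in both groups, with mean signals of 7366 (control) and 4171 (cirrhotic) for Kdr and of 1781 and 767 for Pecam1. All 8 sinusoidal and all 12 general endothelial marker genes measured fell, with summed signals of 49423 to 53664 and 38257 to 39636 in control and 23873 to 27852 and 17908 to 20686 in cirrhotic arrays. Only tested markers could be called, and of all tested probe sets 12.3% were higher and 13.2% lower. Markers that passed the filter through 1 bright group, such as Lox (control mean 79.9), had to differ. Of 15 measured stellate and smooth muscle markers 11 were tested, of which 9 rose and none fell. The 15 had summed signals of 4561 to 6658 (control) and 19416 to 30846 (cirrhotic), although Cnn1 stayed dim (39.6 and 40.7) and Acta2 read 17.6 and 62.3. Of 11 cholangiocyte markers 9 were tested and 8 rose (1331 to 2282 and 6374 to 15187). Of 14 hepatocyte markers, all tested, 6 rose (31290 to 43747 and 37208 to 72672). Of 13 T and NK cell markers 12 were tested and 6 rose (4206 to 5731 and 4291 to 8162). Of 9 macrophage markers, all tested, 2 rose and 1 fell (4359 to 8863 and 5655 to 12190). Of 9 mast cell markers 4 were tested, of which 3 rose and 1 fell (687 to 1002 and 1418 to 5075). Of 5 platelet and erythroid markers 2 were tested and 1 rose (945 to 1795 and 2166 to 7674). Of 4 B cell, plasma cell and neutrophil markers only 1 was tested, and it rose (258 to 386 and 416 to 2044). Among the defining markers, Cd3d, Krt7 and Ppbp were dim in both groups, and the control means of Cldn7, Mcpt10 and S100a8 were 5.17, 3.53 and 2.90. Cirrhotic array 3 had the lowest summed cirrhotic signal in the cholangiocyte, macrophage, T and NK cell, mast cell, platelet and erythroid, and B cell, plasma cell and neutrophil lists and the highest in the hepatocyte list. The part of these markers in the receptor results was not tested.

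Among the vasoactive peptide receptors and their partners, the Ramp genes moved in different directions. Ramp1 read 452.5, 374 and 435 on control arrays 1 to 3 and 1681.5, 1307 and 1461 on cirrhotic arrays 1 to 3. Every cirrhotic array was above every control array, and the rise was 1.78 on the log2(signal + 16) scale (SE 0.15, adjusted p = 0.000457), the largest among the tested receptor probe sets. Signals of Ramp2 were 4324.5, 4055.5 and 4643 in control and 3252, 2731.5 and 2820.2 in cirrhotic arrays. It fell by 0.56 (SE 0.11, adjusted p = 0.00894), again without overlap.

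Ramp3 was left out by the filter, which acts on the mean log2 signal: its mean corresponds to a signal of 77.1, under the 127 of the filter, although its plain mean was 128. It read 28.6, 11.9 and 22.5 in control, within the range of bacterial control probe sets that rat RNA should not bind, and 280.2, 288 and 135 in cirrhotic arrays. In the fit without the filter its difference was 2.72 (adjusted p = 0.0027), and with each array left out as well it stayed between 2.53 and 3.05 with adjusted p-values from 0.00127 to 0.0169. Set against the bacterial probe sets, it was at least 4.18-fold higher in cirrhotic arrays on the scale of signal + 16.

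Calcrl, the receptor with which the Ramp proteins pair, varied too widely between arrays to be called. Its brightest probe set read 625, 1746 and 1120.2 in control and 706, 384 and 1019 in cirrhotic arrays, and its other probe set read 337, 1288 and 1074 against 319, 351 and 632. The groups overlapped on both. The differences were -0.70 (SE 0.43, adjusted p = 0.264) and -0.88 (SE 0.48, adjusted p = 0.215). Control array 1 was low on both probe sets, and without it the second difference was -1.47 and passed (adjusted p = 0.0194, from 0.0194 to 0.493 over its alternatives without a block), while the first did not pass in any alternative tried (adjusted p from 0.11 to 0.595). Calcr, the calcitonin receptor itself, was dim on both of its probe sets (mean signals 97.8 and 24.3).

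Agtr1a, the main receptor of angiotensin II in rat vessels and stellate cells, rose on both of its probe sets. The brighter read 623, 493 and 713 in control and 1540.1, 824 and 1661 in cirrhotic arrays. The other read 499.8, 423 and 500.4 and then 1159, 734.5 and 1227. Cirrhotic array 2 was the lowest cirrhotic array on both, yet lay above all controls. The differences were 1.07 (SE 0.27, adjusted p = 0.0251) and 1.08 (SE 0.21, adjusted p = 0.00841). The call on the brighter probe set ended without any 1 of the control arrays, cirrhotic array 1 or cirrhotic array 3 (adjusted p from 0.00292 to 0.0965 over its alternatives without a block), and that on the other held in all 17 alternatives. Agtr1b and Agtr2 were dim, with mean signals of 34.3 for Agtr1b and 70.8 and 21.6 for the 2 probe sets of Agtr2.

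**Figure D3:**
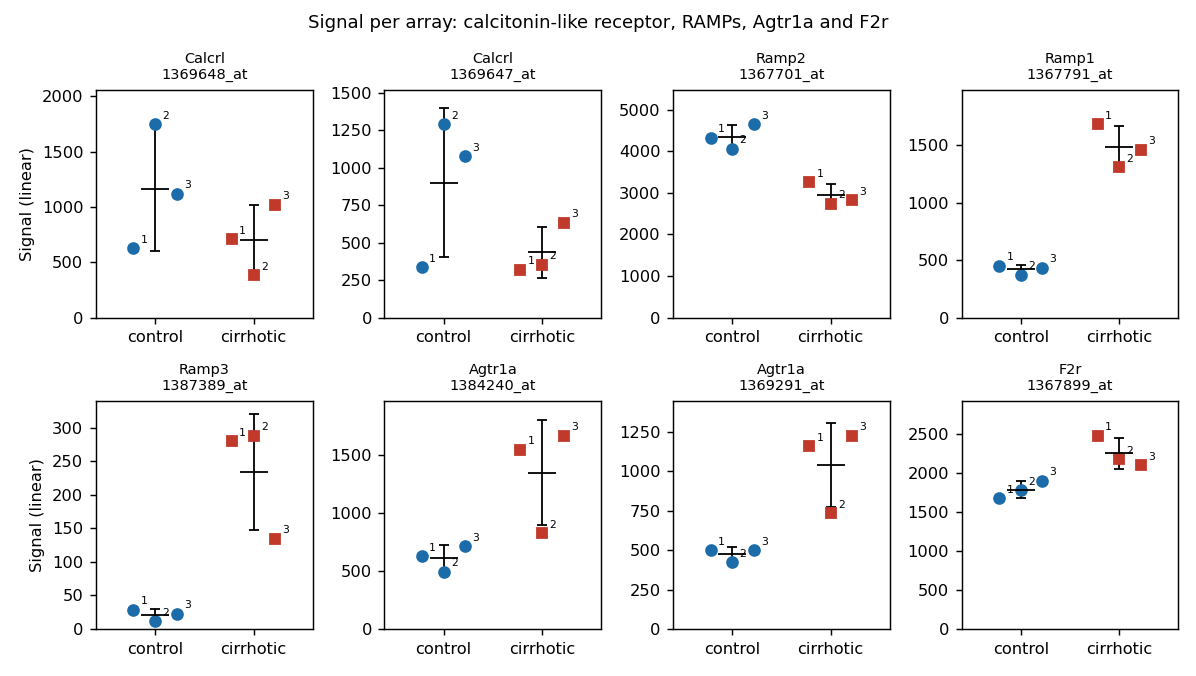
Linear signal on each array for Calcrl and Agtr1a (2 probe sets each), Ramp1, Ramp2, Ramp3 and F2r; numbers are array numbers, the horizontal mark is the mean and the bar 1 SD (n = 3). The groups do not overlap for Ramp1, Ramp2, Ramp3, Agtr1a and F2r, and they overlap on both Calcrl probe sets.

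F2r, the thrombin receptor PAR1, did not pass. It read 1675, 1776.5 and 1897 in control and 2476, 2178 and 2098 in cirrhotic arrays, so the groups did not overlap. Its difference was 0.33 (SE 0.12, adjusted p = 0.0742). It passed only with array weights (adjusted p = 0.0119, up to 0.218 over its alternatives without a block). F2rl1, a receptor cleaved by trypsin and mast cell tryptase, had a difference of -0.22 (SE 0.21, adjusted p = 0.479). The somatostatin receptors Sstr3 and Sstr2 had differences of 0.23 (SE 0.27) and -0.18 (SE 0.21). The thrombin-related receptors F2rl2 and F2rl3 and the bradykinin receptors Bdkrb1 and Bdkrb2 were dim. Avpr2, the antidiuretic vasopressin receptor, was left out by the filter on 1 probe set and dim on the other. Avpr1a, the vasopressin receptor of hepatocytes and smooth muscle, was dim, at 59.2, 55.7 and 25.2 in control and 67.0, 46.4 and 113 in cirrhotic arrays, which overlap.

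Of the 7 tested lipid receptors 4 rose and 2 fell (57.1% and 28.6%, beside 12.3% and 13.2% of all tested). Without the filter, 3 of 19 lipid receptor probe sets were higher and 3 lower (15.8% each, beside 8.06% and 7.42% of the array). The sphingosine 1-phosphate receptors split: S1pr1, the main endothelial form, fell, and S1pr2 and S1pr3, which are known on contractile cells, rose. S1pr1 read 3983, 4935.5 and 4918.5 in control and 3195, 3225 and 2479.5 in cirrhotic arrays. The difference was -0.64 (SE 0.14, adjusted p = 0.0153) without overlap, and the call ended without control array 2 or control array 3 (adjusted p from 0.0097 to 0.0665 over its alternatives without a block). A second S1pr1 probe set was dim (mean signal 29.65) and was lower in cirrhotic arrays too. Of its signals, 2 of 3 control and all 3 cirrhotic ones lay within the bacterial probe sets.

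S1pr3 read 217, 189 and 218 in control and 758, 553 and 496 in cirrhotic arrays. The groups lay far apart, and the difference was 1.45 (SE 0.18, adjusted p = 0.00143). S1pr2 read 161, 146.5 and 153 in control and 288, 223 and 264 in cirrhotic arrays, a difference of 0.69 (SE 0.15, adjusted p = 0.014) without overlap. Its call ended without cirrhotic array 1 (adjusted p from 0.00253 to 0.0669 over its alternatives without a block). The dim second S1pr2 probe set was higher in all cirrhotic arrays as well, with means of 61.6 and 101. S1pr5 was dim.

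Cnr2, the cannabinoid receptor of immune cells, fell. Its signals were 602.5, 572 and 595 in control and 192, 187 and 249 in cirrhotic arrays, with a wide gap between the groups. The difference was -1.44 (SE 0.14, adjusted p = 0.00079). Cnr1, the cannabinoid receptor of neurons that is also made by activated stellate cells, was left out by the filter, at 113, 179 and 115.5 in control and 81.0, 90.7 and 94.9 in cirrhotic arrays.

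Ptger4, a prostaglandin E2 receptor that raises cyclic AMP, read 96.3, 143 and 73.7 in control and 309, 326 and 212 in cirrhotic arrays. It rose by 1.33 (SE 0.26, adjusted p = 0.00844) without overlap. Its control mean (104) was under the filter level, and in the fit without the filter the adjusted p was 0.0163. Ptger3, which lowers cyclic AMP, had a difference of -0.32 (SE 0.20, adjusted p = 0.286). A dim second Ptger3 probe set went the other way, with means of 47.7 (control) and 72.9 (cirrhotic) and overlapping arrays. Ptger1 was left out by the filter and Ptger2 was dim. Lpar1, a receptor of lysophosphatidic acid on mesenchymal cells, read 133, 114 and 95.1 in control and 259, 264 and 154 in cirrhotic arrays. The difference was 0.87 (SE 0.24, adjusted p = 0.0315). That call ended without any 1 of the control arrays, cirrhotic array 1 or cirrhotic array 2, and without the filter (adjusted p from 0.00426 to 0.121 over its alternatives without a block). A dim second Lpar1 probe set had means of 41.6 (control) and 130 (cirrhotic), with overlapping arrays. Lpar2 and Lpar3 were dim.

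**Figure D4:**
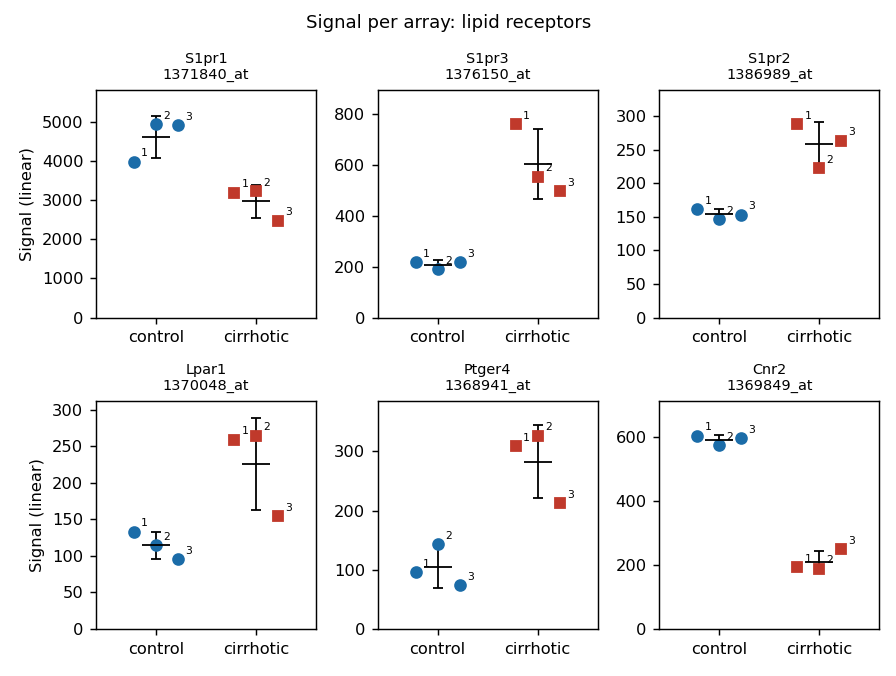
Linear signal on each array for 6 lipid receptors; numbers are array numbers, the horizontal mark is the mean and the bar 1 SD (n = 3). Control arrays lie above cirrhotic arrays for S1pr1 and Cnr2 and below them for S1pr3, S1pr2, Lpar1 and Ptger4.

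None of the 5 tested nucleoside and nucleotide receptors passed, beside 25.4% of all tested probe sets that passed in either direction. Adora2a, the adenosine receptor that relaxes vessels and restrains leukocytes, read 365, 559 and 469 in control and 493, 443.5 and 469.9 in cirrhotic arrays. These ranges overlap, and the difference was 0.03 (SE 0.17, adjusted p = 0.909). Adora2b, a low-affinity adenosine receptor, had a difference of 0.06 (SE 0.24). P2ry1, a receptor of ADP on platelets and endothelium, read 183, 231.5 and 213.5 in control and 157, 156.5 and 238 in cirrhotic arrays, a difference of -0.19 (SE 0.20, adjusted p = 0.507). P2ry6, a UDP receptor, and P2ry14, a UDP-sugar receptor, had differences of -0.07 (SE 0.23) and -0.19 (SE 0.19). Without the adjustment for many tests none of these 5 had a p under 0.05 either. The ATP and UTP receptor P2ry2 was dim, at 71.6, 50.8 and 68.3 in control and 136, 123 and 98.2 in cirrhotic arrays, without overlap. In the fit without the filter its difference was 0.76 (adjusted p = 0.0462), and with an array left out as well the adjusted p ran from 0.0441 to 0.162. Adora1 was left out by the filter, and P2ry4 and P2ry12 were dim.

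The 5 tested amine receptors did not pass either. Adra1b, the adrenergic receptor by which catecholamines act on rat hepatocytes, read 202.5, 227 and 191 in control and 212, 226 and 300 in cirrhotic arrays. The groups overlap, and the difference was 0.22 (SE 0.17, adjusted p = 0.362). The serotonin receptor Htr7 had a difference of 0.36 (SE 0.15, unadjusted p = 0.0452, adjusted p = 0.117 in limma) and passed only with array weights (adjusted p from 0.033 to 0.282 over its alternatives without a block). It was the 1 of the 5 with an unadjusted p under 0.05. Htr2a, Htr1b and Htr5a, further serotonin receptors, had differences of 0.03 (SE 0.24), -0.12 (SE 0.26) and -0.22 (SE 0.27). A dim Htr2a probe set went the other way, with means of 114 (control) and 62.5 (cirrhotic) and overlapping arrays. The muscarinic receptors Chrm3 and Chrm5 were left out by the filter. All 5 dopamine receptor genes, the alpha-2 receptors Adra2a, Adra2b and Adra2c and the beta receptors Adrb1 and Adrb3 were dim.

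The numbered Gpr genes had 6 lower and 1 higher of 12 tested (50% and 8.33%, beside 13.2% and 12.3% of all tested). Without the filter, 4 of their 28 probe sets were lower and 2 higher (14.3% and 7.14%, beside 7.42% and 8.06% of the array). Gpr4, a proton-sensing receptor of endothelial cells, read 895, 566 and 625 in control and 303, 337 and 261 in cirrhotic arrays. The difference was -1.15 (SE 0.19, adjusted p = 0.00516), and the groups did not overlap. Gpr146, a receptor studied in hepatic cholesterol control, read 1725, 1446 and 1303 in control and 573, 788 and 501 in cirrhotic arrays, a difference of -1.26 (SE 0.19, adjusted p = 0.00352). Control array 1 was highest for both genes, and the calls held in all 17 alternatives.

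Of the lysosomal proteins, Gpr137b read 738.5, 740.4 and 849 in control and 187.5, 332 and 231 in cirrhotic arrays. With a difference of -1.61 (SE 0.20, adjusted p = 0.00161) it had the largest fall among tested receptor probe sets. Gpr155 read 248, 287.5 and 274 in control and 82.9, 94.2 and 97.1 in cirrhotic arrays, a difference of -1.41 (SE 0.15, adjusted p = 0.000937). Its cirrhotic mean (91.4) was under the filter level, and in the fit without the filter the adjusted p was 0.00213. The arrays of each group lay close together and the groups far apart. A second Gpr155 probe set had a mean signal of 1.33 and carried no measurable level.

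Gpr107 had a smaller fall, from 298, 330.1 and 337 to 251, 215 and 202.5 (difference -0.50, SE 0.14, adjusted p = 0.0321). Its call ended without any 1 of the arrays other than cirrhotic array 1, and without the filter (adjusted p from 0.0214 to 0.105 over its alternatives without a block). Gpr15lg read 151.5, 165 and 151 in control and 109, 101 and 103 in cirrhotic arrays (difference -0.52, SE 0.16, adjusted p = 0.0462). Its call ended without any 1 of the cirrhotic arrays and without the filter (adjusted p from 0.018 to 0.111 over its alternatives without a block). Its mean log2 signal corresponds to 127.75, just over the filter level of 127.13. It entered the test in only 12 of the 17 alternatives, so the others say nothing about its call. Both genes had no overlap between groups.

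Gpr176, an orphan receptor known from the circadian clock of the brain, rose from 103, 75.0 and 94.9 to 250.3, 203.5 and 233.5. The difference was 1.20 (SE 0.18, adjusted p = 0.00307). Its control mean (91.0) was under the filter level, and in the fit without the filter the adjusted p was 0.00622. A dim second Gpr176 probe set, with means of 11.8 (control) and 8.6 (cirrhotic), lay within the bacterial probe sets on all 6 arrays. It therefore cannot show whether Gpr176 rose. Gpr37, an orphan receptor of glial cells, was left out by the filter and read 61.3, 66.2 and 53.4 in control and 177, 158 and 186 in cirrhotic arrays. In the fit without the filter its difference was 1.31 (adjusted p = 0.00382), and with an array left out as well the adjusted p ran from 0.00973 to 0.0242. Gpr108, Gpr89b, Gpr26, Gpr37l1 and Gpr137 were tested and did not pass, with differences of 0.38 (SE 0.20), 0.12 (SE 0.15), 0.14 (SE 0.29), -0.45 (SE 0.21) and 0.0027 (SE 0.39). Gpr108 passed without cirrhotic array 3 (adjusted p = 0.0371) and with array weights (0.0467), in a range up to 0.436 over its alternatives without a block.

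**Figure D5:**
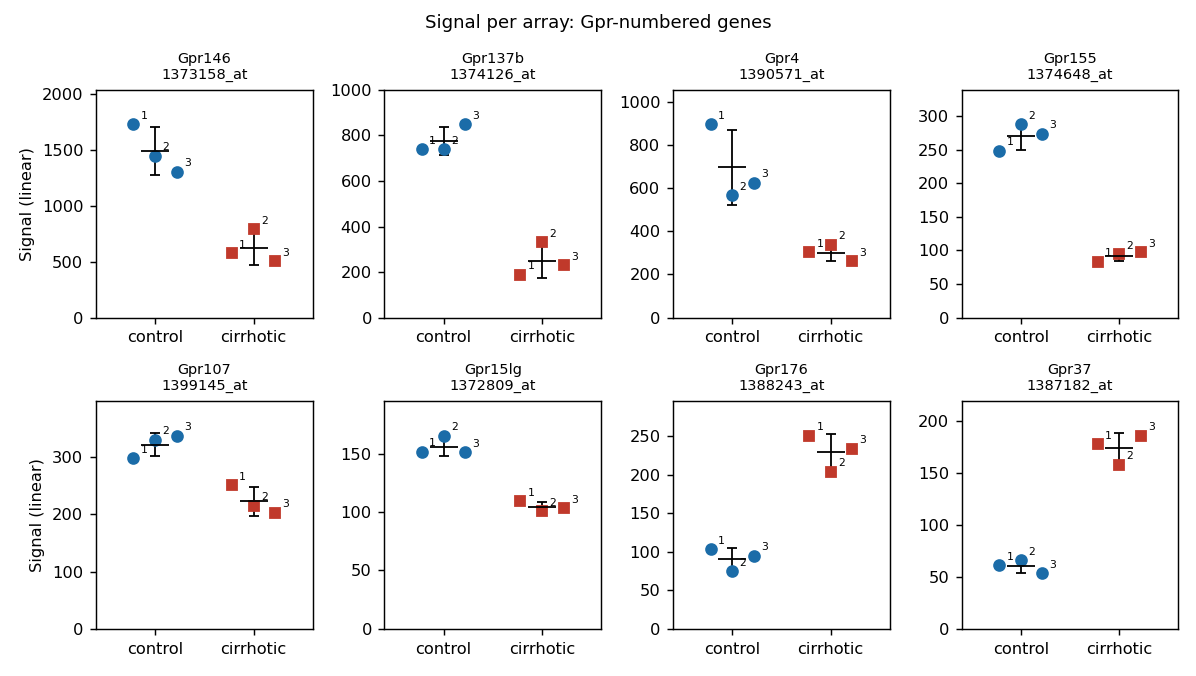
Linear signal on each array for 8 genes with a Gpr symbol; numbers are array numbers, the horizontal mark is the mean and the bar 1 SD (n = 3). Cirrhotic arrays lie below control arrays for the first 6 and above them for Gpr176 and Gpr37.

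Among the 83 dim probe sets, 30 lay within the bacterial control probe sets on all 6 arrays. The groups did not overlap in 6 dim probe sets that were higher and 8 that were lower in cirrhotic arrays, beside 10.1% that were higher and 9.8% lower (19.9% in all) among the array's probe sets with a mean signal under 100. Ratios against signals near background are rough. Adra2b, an adrenergic receptor of vessels, had the largest ratio of group means and read 18.8, 22.5 and 34.6 in control and 99.7, 85.1 and 158 in cirrhotic arrays, with 2 of the 3 control signals within the bacterial probe sets. The size of its difference therefore depends on the added 16. Without the filter its difference was 1.64 (adjusted p = 0.00741), and with an array left out as well the adjusted p ran from 0.0109 to 0.0315. Adra1a, an adrenergic receptor of smooth muscle, read 25.8, 52.0 and 37.7 in control and 9.60, 10.4 and 11.1 in cirrhotic arrays, where all 3 were within the bacterial probe sets. Sstr4, a somatostatin receptor, read 120, 81.5 and 89.5 in control and 15.9, 44.6 and 57.4 in cirrhotic arrays. The dim S1pr1 probe set read 31.9, 42.6 and 63.6 and then 11, 5.3 and 23.5, with 2 control and all 3 cirrhotic signals within the bacterial probe sets. Ptger2, a further prostaglandin E2 receptor, read 11.3, 24.0 and 37.0 and then 7.20, 10.2 and 9.30, the cirrhotic signals lying within the bacterial probe sets. A further dim Htr2a probe set (6, 27.8 and 19.2, then 5.30, 2.50 and 4.20) and a dim Htr7 probe set (7.3, 1.6 and 4.4, then 13.8, 9.6 and 16.4) were within the bacterial probe sets on all arrays. P2ry2 completes the 8 with the largest ratios.

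The 8 called rises, which include both Agtr1a probe sets, did not share 1 order of the cirrhotic arrays. The lowest cirrhotic signal was on array 2 for 5 of them, on array 3 for 3 and on array 1 for 0. The highest was on array 1 for 4. Stellate and smooth muscle markers summed to 30846, 19416 and 24191 on cirrhotic arrays 1 to 3. General endothelial and hepatocyte markers were also lowest on cirrhotic array 2. The lowest cirrhotic signal of the 9 called falls was on array 3 for 4, on array 2 for 3 and on array 1 for 2. Without cirrhotic array 3, whose immune and bile duct markers were lowest, 8 of 40 tested receptor probe sets were higher and 7 lower. In that fit 13% of all tested probe sets were higher and 12.9% lower. The part of the markers in these orders and counts was not tested.

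Genes that supply or remove the ligands were measured for 35 of 50 listed genes, and of 24 tested 4 rose and 5 fell (16.7% and 20.8%, beside 12.3% and 13.2% of all tested). Their median difference was 0.07, beside -0.02 over all tested. With the dimmest 60% left out, 1 rose, beside 13% of all tested probe sets. Some called genes passed the filter through 1 bright group, so the shares of 16.7% and 20.8% do not describe the list as a whole. F3, Ptgs2 and Entpd2 had control means of 58.7, 106 and 106, and Apln had a cirrhotic mean of 81.4. Without the filter, 5 of the 35 measured genes were higher and 5 lower, beside 8.06% and 7.42% of the array. Ptgs2, the inducible cyclooxygenase upstream of prostaglandin E2, rose by 2.50 (SE 0.24) from a mean signal of 106 to 699.5, while the constitutive Ptgs1 fell from 589 to 279 (difference -1.04, SE 0.16). F3, the tissue factor that starts thrombin formation, rose by 2.02 (SE 0.22). The ectonucleotidases Entpd2 and Nt5e, which break down nucleotides outside the cell, rose by 1.61 (SE 0.19) and 1.27 (SE 0.15). Plpp3 and Plpp1, which break down sphingosine 1-phosphate and lysophosphatidic acid, had differences of -1.93 (SE 0.27) and -0.61 (SE 0.09), and Apln, a peptide ligand, and Ece1, which cleaves the endothelin precursor, -2.09 (SE 0.24) and -0.99 (SE 0.16). The adjusted p-values of these 9 genes ran from 0.000719 to 0.00439 in limma. Edn1, the endothelin precursor, had means of 355 and 510, overlapping arrays and no call, and Adm, the adrenomedullin gene, had means of 609 and 273, also overlapping and not called.

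The list of receptor kinases, arrestins and RGS proteins, which end receptor signals, held 17 genes, all of them measured. Of 12 tested 4 rose and 2 fell (33.3% and 16.7%, beside 12.3% and 13.2% of all tested). Their median difference was 0.49, beside -0.02 over all tested. Rgs5 passed the filter through its cirrhotic arrays (control mean 58.0), so the shares of 33.3% and 16.7% do not describe the list as a whole. Rgs5, a pericyte protein that is also in the stellate marker list, rose by 2.87 (SE 0.36), and Grk5, a receptor kinase, by 1.01 (SE 0.18, adjusted p = 0.00643). Rgs1, of lymphocytes, and Rgs16 rose by 1.10 (SE 0.32, adjusted p = 0.0417) and 0.61 (SE 0.18, adjusted p = 0.0378). Rgs3 and the arrestin Arrb2 had differences of -0.93 (SE 0.12) and -0.51 (SE 0.15, adjusted p = 0.0426). With 1 of control arrays 1 and 3 or cirrhotic arrays 1 and 2 left out, the count that rose was 2, and with 1 of the arrays other than cirrhotic array 2 left out, the count that fell was 1. In the fits with 1 array left out, 6.25% to 13% of all tested probe sets were higher and 7.36% to 12.9% lower. Without the filter 2 of the 17 rose and 1 fell, beside 8.06% and 7.42% of the array. With array weights 7 rose, beside 19.1% of all tested probe sets.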

How the data were processed

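RNA from liver endothelial cells was hybridised to 6 Affymetrix rat 230A arrays, 3 per group, and groups were taken from the sample titles. Control array 1 carries no number in its title. The deposited intensity values were linear signals already scaled by the authors (trimmed means of 399.2 to 399.6 on every array, with 2% cut at each end). The software and the summary method are not stated by the labels. The members, lists and tests were chosen with earlier results of these data known.

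Signals were used as deposited and turned into log2(signal + 16), 16 being the rounded 10th percentile. After 57 control probe sets and the dimmest 40% were left out, 9519 probe sets entered the test in limma 3.58.1 (R 4.3.3), with lmFit and eBayes, a variance trend, two-sided p-values and a threshold of 0.05. The test was also run on simulated independent noise with far fewer changed probe sets than were called here, which does not show how it behaves on these arrays. The array number limits precision. Gene names come from the platform annotation, where probe sets with several symbols name no gene, and 98 of 99 gene IDs were found in the GRCr8 table. A gene is described on its brightest probe set. Other tested probe sets are given too, and dim ones only for some genes. All tested members are named. Signals per array are given for called genes, for 14 genes of vascular interest and for up to 8 dim ones. The level of 27 bacterial control probe sets (highest 21.7 to 49.9 per array) as a bound was chosen after seeing the data. Up to 4 genes per pathway list and direction with the smallest p are named, and Ece1 is a further fall. Edn1 and Adm were chosen after their values were seen. Alternatives covered scaling, pseudocount, filter, variance model, array weights, probe set type, the array number as a block and leave-one-out fits.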

Additional observations from a re-analysis of the deposited data

How the results depend on the processing

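No called receptor probe set changed sign in any of 17 alternatives, and of 17 called receptor probe sets 9 kept their call in every alternative in which they were tested (Ramp1, S1pr3, Cnr2, Ptger4, Gpr146, Gpr137b, Gpr4, Gpr155 and 1 of 2 of Agtr1a). The count of higher probe sets was 4 when the dimmest 60% were left out, where 16 receptor probe sets were tested, beside 13% of all tested. With array number as a replicate block, on arrays 2 and 3 of both groups, 4 of 38 tested receptor probe sets were higher and 7 lower. In that fit 5.27% of all tested probe sets were higher and 4.4% lower. The block ended 7 calls, those of Ramp2 (adjusted p = 0.0635), S1pr2 (0.24), Lpar1 (0.174), Gpr107 (0.183), Gpr176 (0.06), Gpr15lg (0.424) and the brighter Agtr1a probe set (0.0527), and added that of the dimmer Calcrl probe set (0.0275). Under it 2 receptor kinase, arrestin and RGS genes rose and 0 fell. That block used 4 arrays, and same-numbered arrays did not deviate together (r = -0.01 and -0.16), so the numbers were not treated as pairs. With each array left out, the counts were 5 to 8 higher and 6 to 8 lower, beside 6.25% to 13% and 7.36% to 12.9% of all tested. The median difference of -0.07 was -0.15 with quantile normalization, -0.15 with median centring, -0.0067 without the filter, -0.27 with the 60% filter, 0.054 with array weights and -0.15 with the block, and ran from -0.16 to 0.16 with an array left out, so it has no settled sign; the cause was not tested. The filter decided whether Ramp3, Gpr37, P2ry2, Adra2b, Adra1a and the dim S1pr1 probe set could be called, an addition after seeing the data: with an array left out as well, Ramp3, Gpr37 and Adra2b kept their calls, and the others lost theirs in at least 1 case. Signal over background limits the dim members.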
